A study of Mus musculus with 9 samples.

Results

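The mouse Ly6 surface proteins Ly6a, Ly6c1, Ly6e and Ly6f were followed through osteoblast differentiation of MC3T3-E1 cells, with and without an shRNA against Runx2. The 4 genes were taken by symbol from the platform's probe annotation, and they were selected on their measured levels, since earlier results of the same arrays had shown Ly6 genes moving in the 3 groups. Their own levels and differences are therefore given as a description, with no test. Of the 4, Ly6e and Ly6f each had 1 probe set of their own among the 19937 genes measured. Ly6c1 was present only on 2 probe sets that also carry Ly6c2, a near-identical neighbour, so those values belong to both genes together and are called Ly6c1/Ly6c2 shared set 1 and shared set 2, in the order of their mean level. Ly6a was on no probe set listed with its symbol and is not analysed here.

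MC3T3-E1 subclone 4 is a clonal preosteoblast line from mouse calvaria. Every culture had been infected with a lentivirus, sorted for green fluorescent protein and grown close to confluence. The 9 arrays form 3 groups of 3 biological replicates: proliferating cells with scramble shRNA at day 0 (Scr day 0), cells with scramble shRNA after 9 days of osteogenic medium containing ascorbic acid and beta-glycerophosphate (Scr day 9), and cells with Runx2 shRNA after the same 9 days (shRunx2 day 9). No Runx2 shRNA culture at day 0 was analysed here. Whether the groups already differed before differentiation therefore cannot be told apart from a difference that arose during it. The study describes a Runx2-specific shRNA beside a scramble control, so other effects of that shRNA cannot be told apart from loss of Runx2. All 3 groups rest on a line that is a single clone.

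Ly6 proteins are small, disulfide-rich proteins with a three-finger fold, most of them held on the outer face of the plasma membrane by a glycosylphosphatidylinositol (GPI) anchor. Many of the mouse genes lie side by side in a cluster that has been duplicated repeatedly, and several are induced by interferons. Ly6a, also called Sca-1, and Ly6c are used as surface markers of progenitor cells and of monocytes and other leukocytes, and Ly6a has been used to sort mesenchymal progenitors that can enter the osteoblast lineage.

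The values are log2 expression levels after robust multichip averaging (RMA), in which a step of 1 is a doubling of signal. The array medians over all probe sets lay between 8.42 and 8.51, and the lowest Pearson correlation between arrays of a group was 0.998. Runx2 is not analysed here, and its depletion was not checked on these arrays. Of 14 listed osteoblast markers 11 were measured, and their mean level was 10.35 to 10.42 at Scr day 0, 11.20 to 11.27 at Scr day 9 and 10.86 to 10.87 at shRunx2 day 9. Of these 11, 7 rose, 1 fell and 3 did not pass between Scr day 0 and Scr day 9 (72.7% passed, beside 31.6% of all genes). With Runx2 shRNA 1 rose, 5 fell and 5 did not pass (54.5%, beside 7.39% of all genes), with a median log2 difference of -0.11. Tnfrsf11b, the decoy receptor osteoprotegerin, was the 1 that went against the others in both comparisons, with -0.88 ± 0.050 at Scr day 9 (log2 difference ± SE, limma adjusted p = 9.78e-08) and 0.45 ± 0.050 with Runx2 shRNA (limma adjusted p = 0.000209). Ibsp, a bone matrix protein, rose by 3.76 ± 0.044 (log2 difference ± SE) between Scr day 0 and Scr day 9 (limma adjusted p = 8.06e-13) and was lower by 1.12 at shRunx2 day 9 than at Scr day 9 (log2 difference -1.12 ± 0.044, limma adjusted p = 1.05e-07).

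Upstream sequences are shown for Ly6f, Ly6c1 and Ly6c2 because the probe sets of these genes moved most, and so that the likeness of the gene copies can be seen. They come from RefSeq on build GRCm38.p6, from the window of 250 bases before to 50 bases after an annotated start, and only the part outside the gene is printed. No such window was listed for Ly6e, Ly6i, Ly6g2 or Ly6a. Capitals mark a match to one of the 4 motifs searched on both strands. The Ly6f stretch is chr15:75268171-75268371 on the plus strand, the Ly6c1 stretch is chr15:75048921-75049087 on the minus strand, and the Ly6c2 stretch is chr15:75112067-75112221 on the minus strand.
Ly6f: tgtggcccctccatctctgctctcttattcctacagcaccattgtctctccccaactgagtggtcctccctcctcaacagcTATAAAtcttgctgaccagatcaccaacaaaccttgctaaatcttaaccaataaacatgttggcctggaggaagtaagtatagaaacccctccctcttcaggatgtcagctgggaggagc
Ly6c1: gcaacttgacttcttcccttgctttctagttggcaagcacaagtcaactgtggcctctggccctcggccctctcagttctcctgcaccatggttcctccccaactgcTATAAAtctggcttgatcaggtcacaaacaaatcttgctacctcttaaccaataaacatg
Ly6c2: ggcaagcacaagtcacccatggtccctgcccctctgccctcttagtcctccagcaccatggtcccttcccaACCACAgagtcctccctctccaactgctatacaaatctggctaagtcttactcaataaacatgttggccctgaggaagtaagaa

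The full windows were aligned, the best-scoring pair was taken where a gene had several, and positions opposite a gap were not counted. Over the aligned part, Ly6f and Ly6c1 shared 215 of 250 bases (86.0%) and Ly6c1 and Ly6c2 shared 208 of 266 (78.2%). The closest pair was Ly6c2 and the neighbouring gene Ly6a2, with 290 of 295 aligned bases the same (98.3%). The capitals in Ly6f and Ly6c1 mark a match to the TATA box motif, searched as TATAAA, at position -169 from the annotated start of Ly6f and -143 from that of Ly6c1. This motif on either strand was present in 13.6% of 32851 mouse windows of the same length. The capitals in Ly6c2 mark ACCACA, which reads on the other strand as the Runx core motif TGTGGT, at position -179 in one of its windows, and the same letters stood at position -174 in Ly6a2. The Runx core in either orientation was present in 16.8% of all windows. The interferon-stimulated response element, searched as 2 copies of TTTC set 2 bases apart on either strand, and the gamma-activated sequence, searched as TTCNNNGAA, were present in 3.44% and 8.30% of all windows and had no match in the windows of Ly6f, Ly6c1, Ly6c2, Ly6a2 or Ly6g. These matches describe letters in a short window, and binding was not measured on the arrays. The study mapped Runx2 binding in MC3T3-E1 cells by sequencing immunoprecipitated chromatin, and those data were not read here for these genes.

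Ly6c1/Ly6c2 and Ly6f signals were high in proliferating cells, low after 9 days of differentiation and intermediate after the same 9 days with Runx2 shRNA. Ly6e followed the same order at day 9 but with far smaller steps, and ended above its day 0 level with Runx2 shRNA. In all of these bulk cultures, fewer cells carrying a transcript and less transcript per cell cannot be told apart.

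Ly6c1 and Ly6c2 encode the antigens that together are read as Ly6C, a marker of inflammatory monocytes and of some T cells and endothelial cells. On shared set 1 the log2 level was 12.98, 13.14 and 13.12 in replicates 1 to 3 of Scr day 0, 11.09, 10.92 and 10.88 at Scr day 9, and 12.67, 12.65 and 12.66 at shRunx2 day 9. The 3 groups did not overlap, and the shRunx2 day 9 arrays lay much closer to the day 0 arrays than to the Scr day 9 arrays. The group means were 13.08 ± 0.087 (SD, n = 3), 10.97 ± 0.112 (SD, n = 3) and 12.66 ± 0.0088 (SD, n = 3). Scr day 9 was 4.32-fold lower than Scr day 0 (log2 difference -2.11 ± 0.060, SE), and shRunx2 day 9 was 3.24-fold higher than Scr day 9 (log2 difference 1.70 ± 0.060, SE). The shRunx2 day 9 cells remained 1.33-fold below Scr day 0 (log2 difference -0.42 ± 0.060, SE).

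Shared set 2 gave the same order with its own values. Its log2 level was 12.58, 12.61 and 12.59 at Scr day 0, 10.43, 10.35 and 10.31 at Scr day 9, and 11.85, 11.88 and 11.88 at shRunx2 day 9, again with no overlap between groups. Scr day 9 was 4.70-fold lower than Scr day 0 (log2 difference -2.23 ± 0.038, SE), and shRunx2 day 9 was 2.85-fold higher than Scr day 9 (log2 difference 1.51 ± 0.038, SE) and 1.65-fold lower than Scr day 0 (log2 difference -0.72 ± 0.038, SE). The probe sets therefore differed in how far the Runx2 shRNA cells stood from day 0: the step between Scr day 9 and shRunx2 day 9 was 80.3% of the day 9 loss on the log2 scale in set 1 and 67.7% in set 2. Which of Ly6c1 and Ly6c2 gave these signals could not be read from either set.

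Ly6f is a neighbour of the Ly6c genes for which less is known. Its log2 level was 10.66, 10.80 and 10.71 at Scr day 0, 8.09, 8.15 and 8.26 at Scr day 9, and 9.16, 9.14 and 9.15 at shRunx2 day 9. The Scr day 9 arrays lay below the median of all probe sets on every array, the other groups lay above it, and no 2 groups overlapped. The group means were 10.73 ± 0.072, 8.16 ± 0.089 and 9.15 ± 0.0088 (SD, n = 3 each). Scr day 9 was 5.91-fold lower than Scr day 0 (log2 difference -2.56 ± 0.051, SE), the widest step of any Ly6 value here. At shRunx2 day 9 the level was 1.98-fold higher than at Scr day 9 (log2 difference 0.99 ± 0.051, SE) and 2.98-fold lower than at Scr day 0 (log2 difference -1.58 ± 0.051, SE), so that the step with Runx2 shRNA was 38.5% of the day 9 loss.

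Ly6e encodes a widely expressed Ly6 protein that is induced by interferon, alters the entry of several viruses and serves as the receptor for the placental envelope protein syncytin-A. Its log2 level was 13.11, 13.08 and 13.08 at Scr day 0, 12.88, 12.87 and 12.76 at Scr day 9, and 13.24, 13.29 and 13.21 at shRunx2 day 9. The arrays of the 3 groups did not overlap, and here the Runx2 shRNA cells were the highest group. The group means were 13.09 ± 0.016, 12.84 ± 0.068 and 13.25 ± 0.044 (SD, n = 3 each). Scr day 9 was 1.19-fold lower than Scr day 0 (log2 difference -0.25 ± 0.043, SE) and shRunx2 day 9 was 1.33-fold higher than Scr day 9 (log2 difference 0.41 ± 0.043, SE). The shRunx2 day 9 cells were 1.12-fold above Scr day 0 (log2 difference 0.16 ± 0.043, SE), a step that shrank to 0.096 when each array was centred on its own median.

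**Figure D1:**
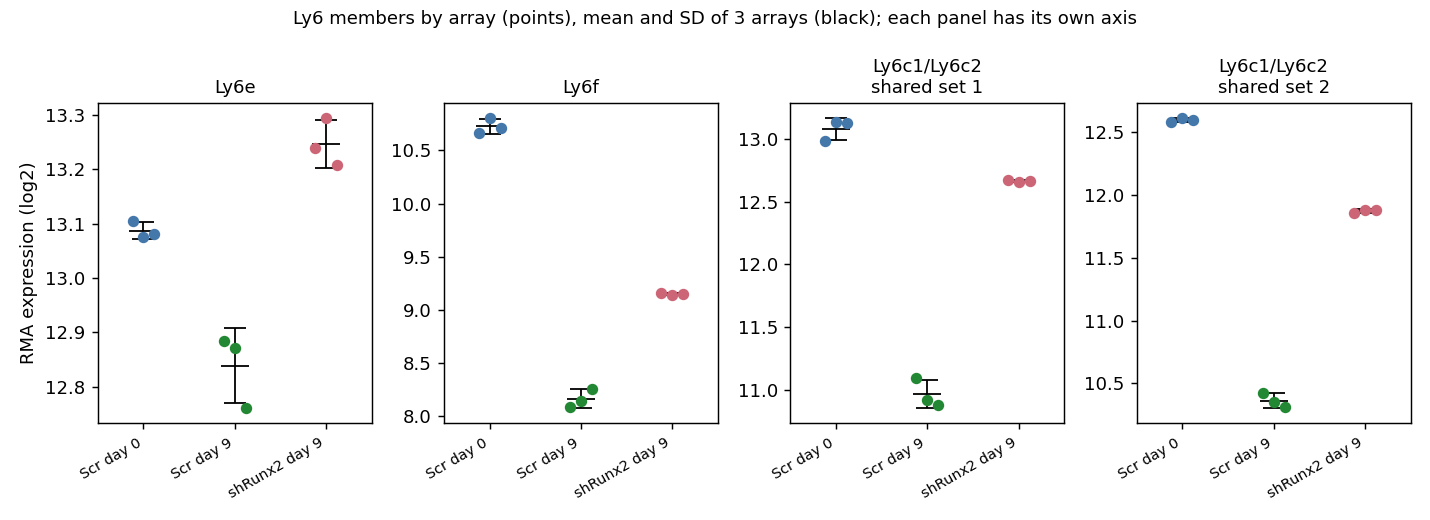
RMA expression (log2, y axis) of Ly6e, Ly6f and both Ly6c1/Ly6c2 probe sets in the 3 groups (x axis), with 1 point per array and the mean and SD of 3 arrays in black; each panel has its own y axis, which does not start at 0. Scr day 9 is the lowest group in every panel, and shRunx2 day 9 lies between the others except for Ly6e, where it is the highest at 13.25.

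The same comparisons over all genes give the measure for these values. Between shRunx2 day 9 and Scr day 9, 7.39% of 19937 genes passed the test (limma with Benjamini-Hochberg adjustment, adjusted p under 0.05), 2.73% rose and 4.66% fell, and all shRunx2 arrays lay above all Scr arrays for 8.34%. Between Scr day 9 and Scr day 0, 31.6% passed, 14.5% rose and 17.1% fell, and all day 9 arrays lay below all day 0 arrays for 22.0%. Between shRunx2 day 9 and Scr day 0, 34.2% passed, 13.8% rose and 20.4% fell, and the arrays did not overlap for 17.7% of genes above and 24.6% below. The order seen in Ly6e, Ly6f and both shared sets, with Scr day 9 below both other groups without overlap, held for 604 genes, or 3.03%. The members were chosen with these values known, so nothing is read from their count against these shares.

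The genes lying around the members on chromosome 15 were read in their order. In the RefSeq order, 16 genes run from Ly6e to Ly6f. Besides the members, 4 of them had a probe set of their own, namely Ly6i, Ly6a2, Ly6g and Ly6g2, and all 4 fell between Scr day 0 and Scr day 9, beside 17.1% of all genes. Ly6g2 fell by 1.25 on the log2 scale (-1.25 ± 0.091, SE, limma adjusted p = 8.52e-07), Ly6g fell by 0.61 (-0.61 ± 0.097, SE, limma adjusted p = 0.000439), Ly6a2 fell by 0.57 (-0.57 ± 0.100, SE, limma adjusted p = 0.000835) and Ly6i fell by 0.56 (-0.56 ± 0.072, SE, limma adjusted p = 8.68e-05).

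With Runx2 shRNA, 2 of these 4 neighbours rose against Scr day 9, beside 2.73% of all genes. Ly6a2 rose by 0.46 ± 0.100 (log2 difference ± SE, limma adjusted p = 0.0177). Its log2 level was 7.62, 7.50 and 7.63 at Scr day 0, 7.23, 7.03 and 6.77 at Scr day 9, and 7.48, 7.34 and 7.59 at shRunx2 day 9, so the Scr day 9 arrays were the lowest and the other groups overlapped. This call rested on single arrays: limma gave an adjusted p of 0.0585 after Scr day 9 replicate 2 was left out, of 0.0700 or 0.0741 after replicate 1 or 3 of shRunx2 day 9 was left out, and of 0.0635 in a fit of both groups alone.

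Ly6g, whose product is part of the Gr-1 antigen of neutrophils, rose by 0.37 ± 0.097 (log2 difference ± SE, limma adjusted p = 0.0431). Its log2 level was 7.07, 7.28 and 7.41 at Scr day 0, 6.50, 6.57 and 6.86 at Scr day 9, and 7.03, 6.97 and 7.03 at shRunx2 day 9. This call was fragile: the limma adjusted p was 0.0684 with Scr day 0 replicate 2 left out, 0.162 or 0.164 with replicate 1 or 2 of Scr day 9 left out, 0.144, 0.0904 or 0.118 with replicate 1, 2 or 3 of shRunx2 day 9 left out, and it lay between 0.00725 and 0.164 over all 16 alternatives.

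Ly6i and Ly6g2 did not pass with Runx2 shRNA. For Ly6i the log2 difference was 0.22 ± 0.072 (SE, limma adjusted p = 0.110), and without Scr day 9 replicate 2 it passed (limma adjusted p = 0.0371). For Ly6g2 it was 0.12 ± 0.091 (SE, limma adjusted p = 0.548). The log2 level of Ly6g2 was 8.76, 8.67 and 8.99 at Scr day 0, 7.44, 7.71 and 7.51 at Scr day 9, and 7.64, 7.58 and 7.81 at shRunx2 day 9, so both day 9 groups overlapped and lay below day 0. Ly6g2 and Ly6i were still lower at shRunx2 day 9 than at Scr day 0, by -1.13 ± 0.091 (log2 difference ± SE, limma adjusted p = 1.76e-06) and -0.34 ± 0.072 (log2 difference ± SE, limma adjusted p = 0.00269). The levels of Ly6i, Ly6a2 and Ly6g lay below the median of all probe sets on every array. The lower quartile of all probe sets ran from 7.15 to 7.23 over the arrays. Ly6i lay below it on every array and Ly6g on every day 9 array, and the Scr day 9 mean of Ly6a2, 7.01, was below it too. Ly6i, Ly6a2 and Ly6g are close copies of each other and of the Ly6c genes, so part of their signal may be shared, which was not tested.

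Of the 10 genes before Ly6e, 5 were measured, among them Ly6k and Ly6m, and 1 of these fell between Scr day 0 and Scr day 9, beside 17.1% of all genes: the steroid 11-beta-hydroxylase gene Cyp11b1 fell by 0.17 (-0.17 ± 0.047, SE, limma adjusted p = 0.0167), a call that ended when Scr day 0 replicate 1 or Scr day 9 replicate 2 was left out (limma adjusted p = 0.0655 and 0.0739). Of the 10 genes after Ly6f, 3 were measured, 9030619P08Rik, Ly6h and Gpihbp1, the last of which encodes the endothelial carrier of lipoprotein lipase. None of these 8 outer neighbours passed the limma test with Runx2 shRNA, and 0 of the 5 and 0 of the 3 had an unadjusted p under 0.05. With 7.39% of all genes passing there, a count of 0 among so few genes is near the background and sets no edge to the stretch.

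**Figure D2:**
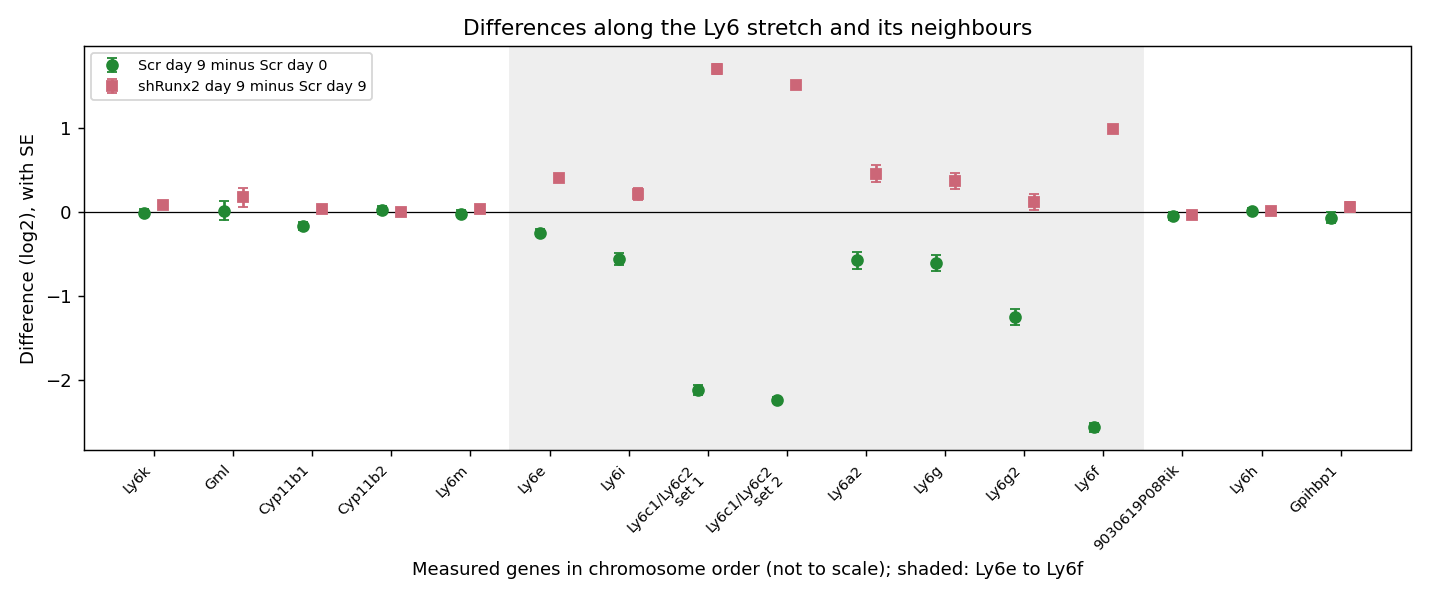
Log2 differences with their SE (y axis) of the measured genes in RefSeq order along chromosome 15 (x axis, order only and not to scale), with Scr day 9 minus Scr day 0 as green circles, shRunx2 day 9 minus Scr day 9 as red squares and the stretch from Ly6e to Ly6f shaded. Inside the stretch all circles lie below 0, down to -2.56 for Ly6f, and all squares above it, up to 1.70 for Ly6c1/Ly6c2 set 1, and the outer neighbours lie between -0.17 and 0.18.

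The wider Ly6 and urokinase receptor (uPAR) family, which shares the three-finger fold, is spread over several chromosomes. Of 49 listed genes 41 were measured, 39 of them besides Ly6e and Ly6f. The neighbour Ly6a2, which passed in both comparisons above, was not on this list and is not in the family counts. Between Scr day 0 and Scr day 9, 6 of these 39 fell, 33 did not pass and none rose (15.4% passed, beside 31.6% of all genes, with 6 at an unadjusted p under 0.05), and their median log2 difference was -0.019, beside -0.016 for all genes. With Runx2 shRNA, 2 rose, 1 fell and 36 did not pass (7.69%, beside 7.39% of all genes), with a median of 0.048 beside -0.0041 for all genes.

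Besides Ly6g2, Ly6i and Ly6g, the family genes that fell by Scr day 9 were Plaur, Lynx1 and Cd59a. Plaur, the urokinase receptor, went further down with Runx2 shRNA: its log2 level was 10.00, 10.03 and 10.00 at Scr day 0, 9.03, 9.10 and 8.99 at Scr day 9, and 8.69, 8.82 and 8.84 at shRunx2 day 9. It fell by 0.98 at day 9 (-0.98 ± 0.047, SE, limma adjusted p = 2.59e-08) and by a further 0.25 with Runx2 shRNA (-0.25 ± 0.047, SE, limma adjusted p = 0.00764), in the opposite direction to Ly6g and Lynx1.

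Lynx1, a modulator of nicotinic acetylcholine receptors, lies on chromosome 15 outside the stretch from Ly6e to Ly6f. Its log2 level was 10.91, 10.96 and 10.96 at Scr day 0, 10.76, 10.69 and 10.69 at Scr day 9, and 10.86, 10.90 and 10.88 at shRunx2 day 9. It fell by 0.23 at day 9 (-0.23 ± 0.036, SE, limma adjusted p = 0.000413) and rose by 0.16 ± 0.036 with Runx2 shRNA (log2 difference ± SE, limma adjusted p = 0.0178). The rise rested on single arrays: limma gave an adjusted p of 0.0832 or 0.0617 after Scr day 9 replicate 2 or 3 was left out, and of 0.0624 or 0.0531 after replicate 2 or 3 of shRunx2 day 9 was left out.

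Cd59a, an inhibitor of the complement membrane attack complex that was named after its value was seen, passed narrowly at day 9 (-0.20 ± 0.071, log2 difference ± SE, limma adjusted p = 0.0496), and its adjusted p ran from 0.0186 to 0.190 over 16 alternatives, losing the call in 9 of them, among them those that left out replicate 1 or 2 of Scr day 0, any replicate of Scr day 9 or replicate 3 of shRunx2 day 9. The other measured genes with a Ly6 name, Ly6d, Ly6g5c, Ly6g6c, Ly6g6d, Ly6g6e, Ly6g6f, Ly6g6g, Ly6h, Ly6k and Ly6m, passed neither of these comparisons. Among them the largest difference with Runx2 shRNA was that of Ly6g6f (log2 difference 0.12 ± 0.044, SE, limma adjusted p = 0.154).

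**Figure D3:**
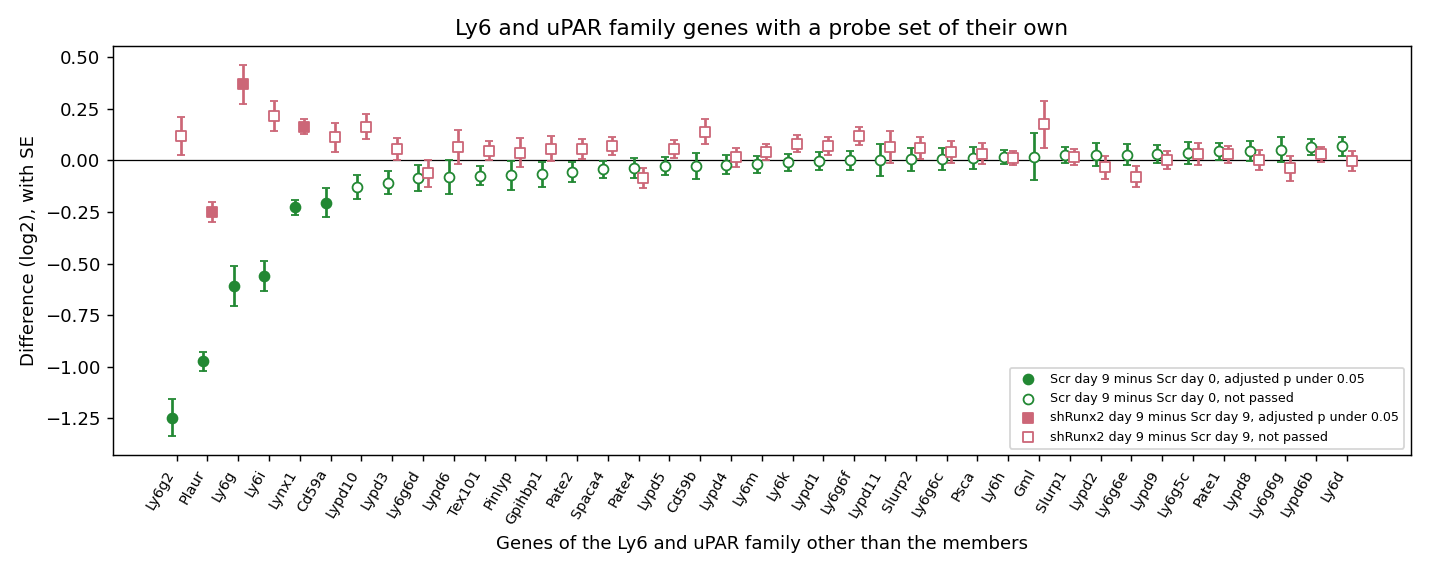
Log2 differences with their SE (y axis) of the 39 measured Ly6 and uPAR family genes other than the members, ordered along the x axis by Scr day 9 minus Scr day 0 (green circles), with shRunx2 day 9 minus Scr day 9 as red squares and filled symbols for a limma adjusted p under 0.05. Filled circles run from -1.25 for Ly6g2 to -0.20 for Cd59a, and filled squares stand at 0.37 for Ly6g, 0.16 for Lynx1 and -0.25 for Plaur. Ly6a2 is not on the family list and is not shown.

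Most Ly6 proteins reach the surface on GPI anchors. Of 30 listed genes that build and attach the anchor 29 were measured. With Runx2 shRNA none of the 29 passed the limma test, beside 7.39% of all genes, 5 had an unadjusted p under 0.05, and the median log2 difference was -0.031, beside -0.0041 for all genes. Between Scr day 0 and Scr day 9, 9 rose, 4 fell and 16 did not pass (44.8%, beside 31.6% of all genes), with a median of -0.0073, beside -0.016 for all genes. Pigt, a subunit of the transamidase that attaches the anchor, rose by 0.44 ± 0.037 (log2 difference ± SE, limma adjusted p = 2.59e-06). Piga, a subunit of the enzyme of the first step of anchor synthesis, fell by 0.37 (-0.37 ± 0.049, SE, limma adjusted p = 9.70e-05). Pgap1 and Pgap2, which remodel the anchor after attachment, rose by 0.33 ± 0.056 and 0.26 ± 0.040 (log2 difference ± SE, limma adjusted p = 0.000653 and 0.000327).

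Other proteins held by a GPI anchor moved in both directions. Of 49 listed, 48 were measured. With Runx2 shRNA 4 rose, 7 fell and 37 did not pass (22.9%, beside 7.39% of all genes, median log2 difference 0.018 beside -0.0041), and at day 9 of Scr cells 13 rose, 8 fell and 27 did not pass (43.8%, beside 31.6% of all genes, median -0.0086 beside -0.016). Bst2, or tetherin, an interferon-induced protein that holds budding viruses at the cell surface, rose with Runx2 shRNA by 1.17 ± 0.065 (log2 difference ± SE, limma adjusted p = 1.68e-06), but it had also risen at Scr day 9 (log2 difference 0.53 ± 0.065, SE, limma adjusted p = 5.77e-05), where the Ly6 members were lower. Gpc1, a heparan sulfate proteoglycan, moved in the order of the members: it fell by 1.08 at Scr day 9 (-1.08 ± 0.034, SE, limma adjusted p = 8.72e-10) and rose by 0.29 ± 0.034 with Runx2 shRNA (limma adjusted p = 0.000363). Alpl, the bone alkaline phosphatase, fell by 0.75 with Runx2 shRNA (-0.75 ± 0.074, SE, limma adjusted p = 9.26e-05), and Nt5e, or CD73, which makes adenosine from AMP, fell by 0.56 (-0.56 ± 0.059, SE, limma adjusted p = 0.000159) after a rise of 2.18 ± 0.059 at Scr day 9 (limma adjusted p = 2.64e-10).

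Interferon signalling was examined because several Ly6 genes respond to it. Of 19 listed receptors and transducers 18 were measured. With Runx2 shRNA 6 rose, 4 fell and 8 did not pass (55.6%, beside 7.39% of all genes, median log2 difference 0.030 beside -0.0041). Irf9 and Stat2, which form the complex that carries the type I interferon signal to DNA, rose by 0.79 ± 0.056 and 0.73 ± 0.056 (log2 difference ± SE, limma adjusted p = 8.50e-06 and 1.31e-05). Irf7, an interferon-induced factor that amplifies the response, rose by 1.21 ± 0.099 (limma adjusted p = 2.38e-05), and Usp18, an induced inhibitor of the receptor, rose by 1.63 ± 0.117 (limma adjusted p = 8.86e-06). Jak1 was among the 4 that fell (limma adjusted p = 0.0383), a call lost under 8 of 17 alternatives. It also passed between Scr day 0 and Scr day 9 (limma adjusted p = 2.22e-06).

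At Scr day 9 the same list was split. In that comparison 6 rose and 5 fell, and 7 of the 18 did not pass (61.1%, beside 31.6%, median 0.0032 beside -0.016). Usp18 rose by 1.16 ± 0.117 (log2 difference ± SE, limma adjusted p = 1.25e-05) and Irf9 by 0.28 ± 0.056 (limma adjusted p = 0.00235). Irf1 and Irf5, transcription factors of the same family, fell by 0.44 (-0.44 ± 0.045, SE, limma adjusted p = 1.22e-05) and by 0.67 (-0.67 ± 0.056, SE, limma adjusted p = 2.42e-06), and Socs3, a feedback inhibitor of cytokine receptors, fell by 1.11 (-1.11 ± 0.060, SE, limma adjusted p = 6.84e-08). A part of interferon signalling in the Ly6 values was not tested.

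Surface markers used to sort mesenchymal progenitors, a use that Ly6a has also had, were split. Of 16 measured, 6 rose, 7 fell and 3 did not pass between Scr day 0 and Scr day 9 (81.2%, beside 31.6% of all genes, median log2 difference -0.053), and with Runx2 shRNA 2 rose, 3 fell and 11 did not pass (31.2%, beside 7.39%, median 0.037). Cd34, a sialomucin of progenitor cells, followed the order of the members: it fell by 0.69 at Scr day 9 (-0.69 ± 0.033, SE, limma adjusted p = 2.53e-08) and rose by 0.34 ± 0.033 with Runx2 shRNA (limma adjusted p = 8.01e-05). Itga6, a laminin receptor subunit that rose by 0.40 ± 0.059 with Runx2 shRNA (limma adjusted p = 0.00153), had fallen by 0.997 at Scr day 9 (-0.997 ± 0.059, SE, limma adjusted p = 1.47e-07). Alcam fell by 1.99 at Scr day 9 (-1.99 ± 0.048, SE, limma adjusted p = 1.08e-10), the widest loss of the list, and Cd200 ran the other way to the members, with 1.61 ± 0.066 at Scr day 9 (limma adjusted p = 7.45e-09) and -0.72 ± 0.066 with Runx2 shRNA (limma adjusted p = 5.27e-05).

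The genes most like each member were found by the root mean square (RMS) difference over the 9 arrays after every gene was centred on its own mean, and they are given as a description. For Ly6e the closest were Slc23a2, a vitamin C transporter, at 0.027, H2-DMa, which helps to load class II molecules, at 0.029, Fubp1 at 0.044, Rbpj, the DNA-binding partner of Notch, at 0.054 and Slc19a2, a thiamine transporter, at 0.058, on a log2 scale where the median gene stood at 0.19. All 5 had steps close to those of Ly6e, from -0.35 to -0.21 at Scr day 9 and from 0.35 to 0.47 with Runx2 shRNA.

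For Ly6f the closest were Cda, which deaminates cytidine, at 0.20, Sema3c, a secreted guidance protein, at 0.24, Ankrd1 at 0.28, and Ptprn and AA467197 at 0.29, against 1.05 for the median gene. Their steps ran from -2.53 to -1.90 at Scr day 9 and from 0.32 to 0.77 with Runx2 shRNA, all smaller than the 0.99 of Ly6f. For Ly6c1/Ly6c2 shared set 1 they were Arhgap29 at 0.29, the retinol dehydrogenase gene Dhrs9 at 0.40, AA467197 at 0.41, the creatine synthesis gene Gatm at 0.46 and Met, the hepatocyte growth factor receptor, at 0.47, against 0.91 for the median gene. Arhgap29 was also the closest gene to shared set 2, at 0.25, and Ly6f was the fourth closest, at 0.36. Even Arhgap29 fell short of shared set 1 in both steps, with -1.67 at Scr day 9 and 1.04 with Runx2 shRNA.

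**Figure D4:**
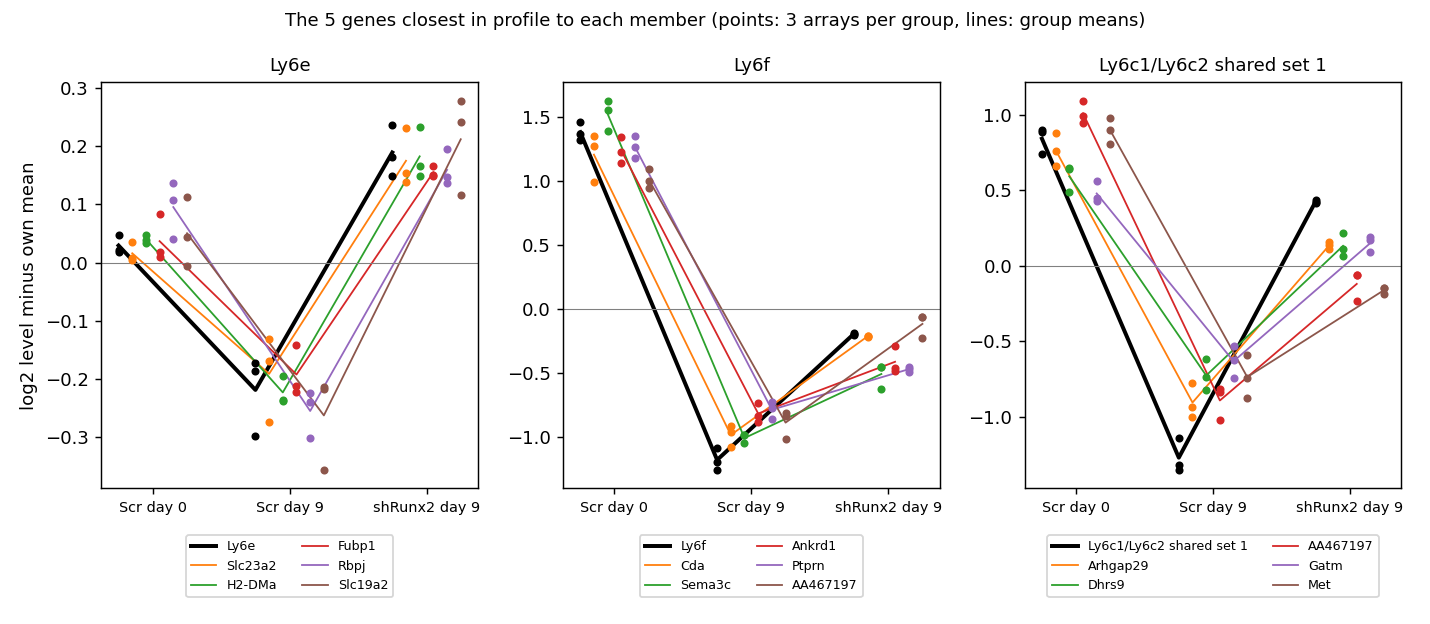
Log2 level minus each gene's own mean over 9 arrays (y axis) in the 3 groups (x axis) for Ly6e, Ly6f and Ly6c1/Ly6c2 shared set 1 (thick black lines) and the 5 genes closest to each (colours), with 1 point per array and lines through the group means; each panel has its own y axis. The genes around Ly6e lie almost on it, with RMS differences of 0.027 to 0.058, whereas shared set 1 goes lower at Scr day 9 and higher at shRunx2 day 9 than its 5 closest genes.

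Since Ly6C marks leukocytes and endothelial cells, markers of other cells were read beside the members. The 12 macrophage and leukocyte markers had a mean level of 7.66 to 7.68 at Scr day 0, 7.72 to 7.77 at Scr day 9 and 7.75 to 7.80 at shRunx2 day 9, all below the array medians, and no more than 1 of the 12 lay above the median gene in any group. With Runx2 shRNA, Lyz2, the lysozyme of myeloid cells, rose by 0.42 ± 0.087 (limma adjusted p = 0.0125), Fcer1g fell by 0.27 (-0.27 ± 0.048, SE, limma adjusted p = 0.00561) and the other 10 did not pass (16.7% passed, beside 7.39% of all genes). Lyz2 and Fcer1g, 2 of the 12 (16.7%, beside 31.6% of all genes), had both risen at Scr day 9, by 0.80 ± 0.087 (limma adjusted p = 2.21e-05) and 0.50 ± 0.048 (limma adjusted p = 8.37e-06). The other 10, among them Ptprc, Itgam, Adgre1 and Csf1r, passed in neither comparison. With Runx2 shRNA, 3 of the 12 had an unadjusted p under 0.05. Whether other cells gave part of the Ly6c1/Ly6c2 signal was not tested.

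The 8 endothelial markers had a mean level of 7.56 to 7.68 over all 9 arrays and the 6 measured of 8 lymphocyte markers one of 7.35 to 7.47. None of them was above the median gene in any group and none passed the limma test in these comparisons, with 1 lymphocyte marker at an unadjusted p under 0.05 at Scr day 9. Of all genes 7.39% passed with Runx2 shRNA and 31.6% at Scr day 9, so a count of 0 among so few markers is near the background with Runx2 shRNA. Of 6 measured keratinocyte markers none passed with Runx2 shRNA, and Krt14 fell at Scr day 9 (-1.04 ± 0.047, log2 difference ± SE, limma adjusted p = 1.46e-08).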

How the data were processed

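RNA from 9 MC3T3-E1 cultures was hybridised by the authors to Affymetrix Mouse Gene 1.0 ST arrays, and the deposited values are log2 expression after RMA normalization, 1 value per probe set and array. Per the labels and the study's methods, RMA and limma were used; the annotation build of the values is not given in the sources used here. Of 34760 probe sets, 21640 carried 1 gene symbol in the platform annotation, 1321 several and 11799 are unnamed here. Where a gene had several (954 genes), the probe set brightest on average was kept, giving 19937 genes, of which 19855 matched the RefSeq gene table by gene ID. Number of arrays, not read depth, limits the precision.

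The deposited values were fitted without further normalization in limma 3.58.1 (R 4.3.3), with lmFit and eBayes over all 9 arrays and 1 mean per group, no covariate and Benjamini-Hochberg adjustment over all genes. A gene rose or fell at an adjusted p under 0.05. Probe sets shared by several genes were fitted in a run that included them. The fit was tested on simulated data. Sequence windows were searched and aligned with Python 3.11.15 and Biopython 1.88. The labels call the 3 arrays of a group biological replicates and say nothing more of their origin.

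The 4 members, the gene lists and the motifs were chosen with earlier results of these data known. Named genes were, by rule, the members, up to 4 genes of each pathway list with the smallest adjusted p in each of the first 2 comparisons, measured genes with a Ly6 symbol, the 5 genes closest to each member, and genes up to 10 places from the Ly6e to Ly6f stretch that passed; Cd59a, Ibsp and cell type markers were named in addition. Gfra1 and Gfra2, GPI-anchored proteins, also met this rule at Scr day 9 (limma adjusted p = 2.06e-08 and 2.49e-10) and are not described above. Alternatives were other probe set choices, array centring, a filter on low values, fits of the 2 groups only, array weights, an intensity trend, a replicate block and leaving out each array. Ly6a and Runx2 are not analysed here.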

Additional observations from a re-analysis of the deposited data

How the results depend on the processing

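The member differences kept their direction in all 96 alternatives. In 94 of these they differed from the reported value by less than the spread between replicates. For fits without 1 array both outcomes were fixed beforehand. The groups did not overlap, and in groups this small leaving out 1 array moves a mean by less than that spread. The replicate block left the differences unchanged, as every group held the same replicate numbers. For those alternatives the counts therefore say nothing of stability, and the 2 differences that moved did so with centred arrays. With arrays centred on their medians the shRunx2 day 9 minus Scr day 0 difference of Ly6e was 0.096 in place of 0.16 and that of Ly6c1/Ly6c2 shared set 2 was -0.79 in place of -0.72. The number of genes passing between shRunx2 day 9 and Scr day 9, 1474, was 2590 with array weights and 858 to 1502 with 1 array left out, the lowest without Scr day 9 replicate 2.

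Of the other family genes, the 2 that rose with Runx2 shRNA were 1 with every probe set of 1 symbol, with shared probe sets, with genes above the median only or with the 2 groups only, and 0 to 2 with 1 array left out. The 6 that fell by Scr day 9 were 2 among genes above the median and 5 to 6 with 1 array left out. The filter on the median removed Ly6g2, Ly6g, Ly6i and Cd59a before the fit. The lower family counts with that filter follow from this removal and say nothing of how stable the calls were. Between shRunx2 day 9 and Scr day 0, none of the 39 rose, beside 13.8% of all genes, and 3 fell, beside 20.4%. Those that rose were 1 with the 2 groups only, 2 with array weights, 1 with the replicate block and 0 to 2 with 1 array left out. Those that fell were 7 with centred arrays, 1 above the median and 3 to 4 with 1 array left out. Of 80 named gene comparisons 48 passed, and 41 did so under every alternative. Many of these genes were named for a small adjusted p, so both counts follow in part from that choice.

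Whether the replicate numbers pair the arrays was not settled. Correlations of deviations of same-numbered arrays ran from -0.11 to 0.29, and 6 of 9 arrays were closest to their own number. Between Scr day 0 and Scr day 9 these correlations were 0.29, 0.082 and 0.29 for replicates 1 to 3. With the replicate block 1450 genes passed between shRunx2 day 9 and Scr day 9 and 6466 between Scr day 9 and Scr day 0, in place of 1474 and 6308.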
